A study of Homo sapiens with 12 samples.

Results

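The 47 genes described here carry out DNA replication or commit cells to it: they load and start the replication machinery, copy the DNA, supply its nucleotides, or, as E2F factors and cyclin E, drive the passage from G1 into S phase. They were taken as a list of gene names, with earlier results of these data known, from 19775 genes with a probe set of their own. Each gene is represented by its probe set of highest mean across the 12 arrays. All 47 were above 4 on the log2 scale on all 3 arrays of at least 1 group, the filter for testing, which 10508 genes passed. ORC1, MCM10, CLSPN and E2F8 were at or below 4 on some array, and ORC1 and CLSPN passed through their 12 h groups alone.

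Affymetrix arrays recorded the messenger RNA of HK-2 cells, with 3 biological replicates in each of 4 groups: control at 12 h, CsA at 12 h, control at 48 h and CsA at 48 h. HK-2 is an immortalised line of human proximal tubule epithelium. It was made with papillomavirus oncogenes, of which the E7 protein binds RB, the brake on E2F factors, and all groups share that background. CsA is read as cyclosporine A, an immunosuppressant that blocks calcineurin and can damage the kidney; its dose is not in the labels, and controls received its vehicle. Cells of all groups were plated 24 h before exposure, were nearly confluent when it began, and grew without serum in medium with EGF, insulin, transferrin, selenite and hydrocortisone. The question was how CsA changed gene expression at an early and a later time. The labels call the replicates biological without saying what separates them, so p-values measure the spread between these cultures.

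In G1 the origin recognition complex, CDC6 and CDT1 place rings of the MCM2 to MCM7 helicase on DNA, and geminin then holds CDT1 back so that no origin is loaded again. In S phase CDC45 and the GINS complex turn the rings into moving helicases, primase and the polymerases copy the strands, and PCNA clamps the polymerases to DNA. Most of these genes are switched on by E2F factors in late G1, when cyclin E with its kinase helps to inactivate RB. Tubule cells of the adult kidney seldom divide, whereas an immortalised line in culture does.

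Promoter windows were available for 41 of the 47 genes from RefSeq (GRCh38.p14, 250 bases before to 50 after a transcription start). The 5 below are shown because they carry different forms of the E2F letters, or none, in genes that differ in what they did at 48 h. Capitals mark any of 4 forms, TTTCCCGC, TTTGGCGC, TTTCGCGC or TTTGCCGC, on either strand. Where forms overlap, as on the opposite strands of MCM2, the capitals join them. MCM2 (chr3:127598161-127598460, plus strand), PCNA (chr20:5126573-5126872, minus strand), E2F1 (chr20:33686336-33686635, minus strand), CDC6 (chr17:40287629-40287928, plus strand) and CCNE1 (chr19:29811741-29812040, plus strand) read 5′ to 3′ as follows.
MCM2: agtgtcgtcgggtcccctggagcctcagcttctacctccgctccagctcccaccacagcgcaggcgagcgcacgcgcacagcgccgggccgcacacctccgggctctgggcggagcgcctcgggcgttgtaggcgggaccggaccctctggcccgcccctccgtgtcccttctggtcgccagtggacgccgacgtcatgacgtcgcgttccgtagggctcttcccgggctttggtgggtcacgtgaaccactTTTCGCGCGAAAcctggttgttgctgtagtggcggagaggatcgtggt
PCNA: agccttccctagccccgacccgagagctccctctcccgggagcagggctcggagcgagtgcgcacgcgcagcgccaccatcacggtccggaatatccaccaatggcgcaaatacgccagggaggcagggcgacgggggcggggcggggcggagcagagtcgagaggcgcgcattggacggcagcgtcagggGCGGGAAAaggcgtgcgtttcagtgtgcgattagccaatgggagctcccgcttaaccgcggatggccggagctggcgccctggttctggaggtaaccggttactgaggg
E2F1: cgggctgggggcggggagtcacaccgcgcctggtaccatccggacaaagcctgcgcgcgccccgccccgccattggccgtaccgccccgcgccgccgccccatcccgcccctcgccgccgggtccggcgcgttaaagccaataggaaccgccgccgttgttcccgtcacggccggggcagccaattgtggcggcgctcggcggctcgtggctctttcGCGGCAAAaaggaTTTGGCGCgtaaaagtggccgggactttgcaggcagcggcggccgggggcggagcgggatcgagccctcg
CDC6: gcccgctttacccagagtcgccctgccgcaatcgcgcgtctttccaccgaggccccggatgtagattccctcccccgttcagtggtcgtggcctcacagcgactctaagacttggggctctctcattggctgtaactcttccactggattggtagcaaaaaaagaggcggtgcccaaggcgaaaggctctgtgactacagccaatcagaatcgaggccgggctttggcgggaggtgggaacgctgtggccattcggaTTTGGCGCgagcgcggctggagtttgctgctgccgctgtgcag
CCNE1: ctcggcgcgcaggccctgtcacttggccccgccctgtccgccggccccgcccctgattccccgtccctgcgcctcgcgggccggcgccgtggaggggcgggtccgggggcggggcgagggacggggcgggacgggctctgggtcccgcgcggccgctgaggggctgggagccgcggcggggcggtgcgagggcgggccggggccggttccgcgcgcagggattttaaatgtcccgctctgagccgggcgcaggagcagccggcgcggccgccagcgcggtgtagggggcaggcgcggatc
The window of MCM2, a helicase subunit, holds 2 overlapping matches, that of E2F1 2 and those of PCNA and CDC6 1 each. PCNA has another window without a match, and the window with more matches was the one printed. CCNE1, which codes for a cyclin E, has none in its window. Some genes have more than 1 window, and of all 52 windows of these genes 25 (48.1%) held a match, against 1164 of 35116 promoter windows in the RefSeq table (3.31%). By gene, 24 of 41 (58.5%) had a match in at least 1 window. CCAAT, searched on both strands, was in 32 of the 52 windows (61.5%) against 34.6% of all. TTTGAA, letters typical of mitotic genes and searched on both strands, was in 1 of 52 (1.92%) against 15.2%. A match is a run of letters and not a measured binding site. For E2F only the 4 exact forms were searched, so a window without a match was not shown to lack a binding site.

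The largest shift in these genes went with time in culture. In control cells 46 of the 47 were lower at 48 h than at 12 h, and the median change was -1.12 (log2) against 0.0076 over all genes tested. Of these, 19 passed the test (limma, Benjamini-Hochberg adjusted p under 0.05), all lower, beside 13.7% of all genes called lower and 12.5% called higher. Under CsA 46 were again lower, with a median of -1.15 against 0.010 over all genes, and 9 passed, all lower, beside 7.58% called lower and 6.77% called higher. ORC1 and CLSPN entered the test through their 12 h groups alone, which favoured a lower value at 48 h. In a count added after the data were seen, over the 45 genes past the filter at both times, 17 passed in controls and 8 under CsA, beside 13.6% and 7.58% called lower of the 10315 genes past it at both times. At 48 h all 3 control arrays lay below all 3 control arrays of 12 h for 42 of the 47 genes, beside 25.2% of all genes; CDC6, CDT1, RFC5, PRIM1 and POLD1 were the exceptions. Under CsA this held for 22 of 47, beside 18.9% of all genes. Both counts include ORC1 and CLSPN, for which the filter favoured this order. On arrays of bulk RNA, fewer cells in S phase and less RNA per cell cannot be told apart, nor can time of exposure and time since plating. These counts depended on single arrays, while the direction did not. In controls, leaving out 12 h replicate 1, 2 or 3 gave 5, 6 and 6 calls, leaving out 48 h replicate 1 or 2 gave 3 and 6, and leaving out 48 h replicate 3 gave 24. Under CsA, leaving out 12 h replicate 1, 2 or 3 gave 1, 0 and 0 calls, and leaving out 48 h replicate 1 or 2 gave 1 and 1. Leaving out CsA 48 h replicate 3 gave 44 calls. The share of all genes called in each of these refits is not given here, so the refit counts show nothing particular to the 47 genes. The median change stayed below 0 without any 1 array, from -1.32 to -0.90 in controls and from -1.65 to -0.63 under CsA.

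**Figure D1:**
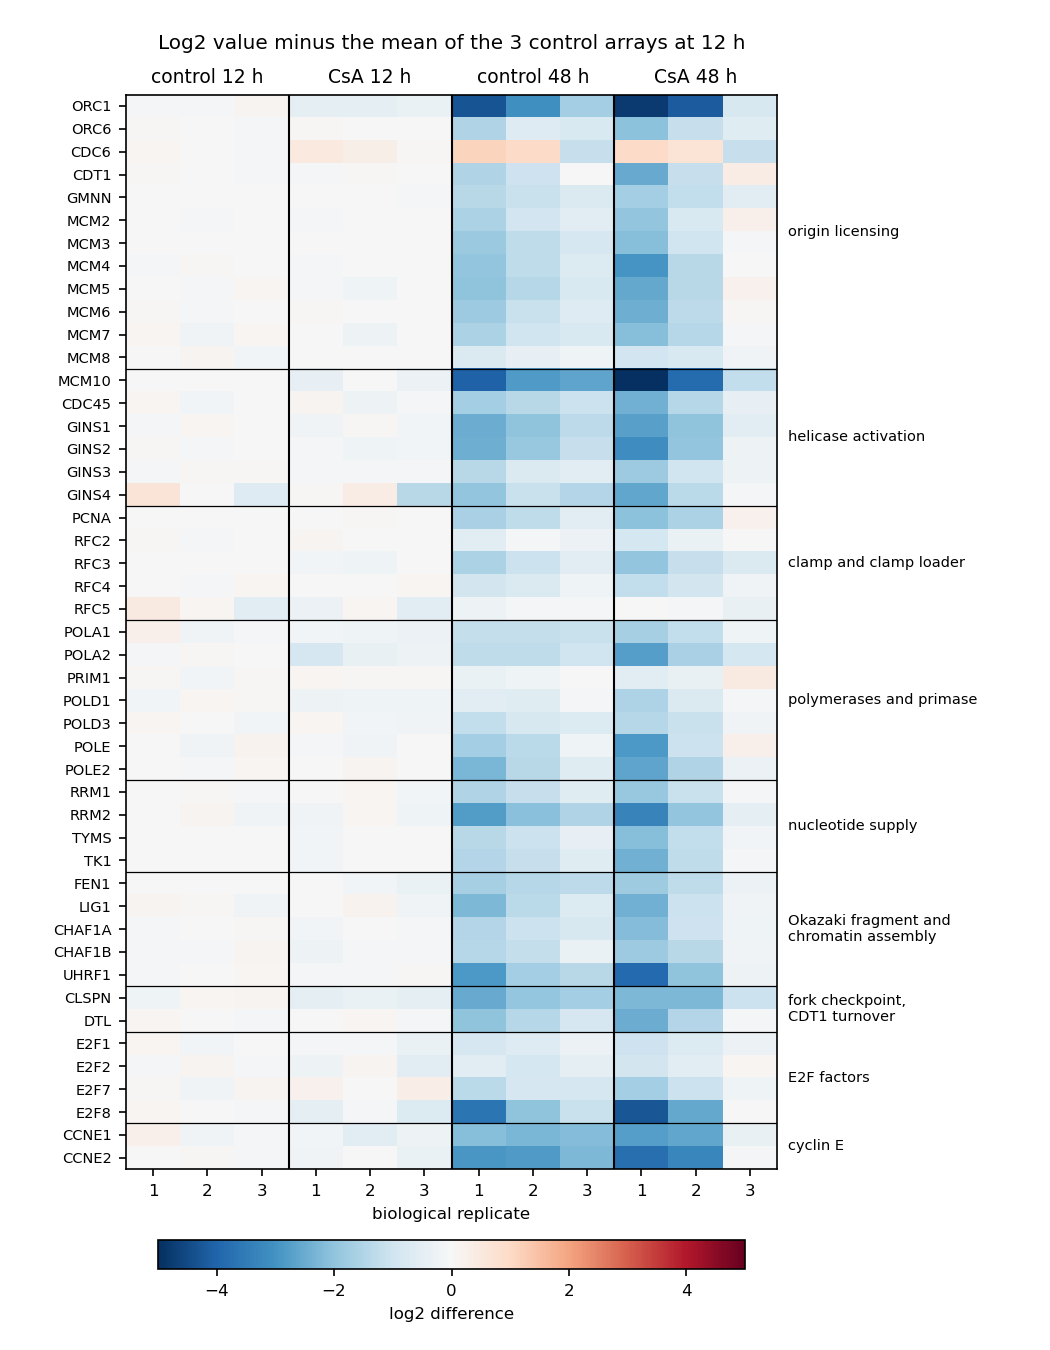
Log2 value of each of the 47 genes (rows, grouped by role) on each of the 12 arrays (columns, numbered by biological replicate) minus that gene's mean over the 3 control arrays at 12 h; blue is lower and red higher, and the scale ends at 5 in either direction. The 12 h columns are nearly white, the 48 h columns are mostly blue, and within each 48 h group replicate 1 is mostly the deepest blue and replicate 3 the palest; among the licensing genes CDC6 has replicate 3 lowest in both groups, and ORC6 has replicate 2 highest in control.

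Between CsA and control no member passed the test. Its SEs, intervals and p-values pool the spread of all 12 arrays and leave out the replicate pairs, so at 12 h they carry the wider spread of 48 h. At 12 h the median difference was -0.065 (log2; all genes -0.015), at 48 h -0.020 (all genes -0.018; 0.0017 after a further quantile normalization), and for the difference between these effects -0.0058. In each of the 3 tests limma called 0 of 10508 genes (0%) and 0 of the 47. At an unadjusted p under 0.05 it found 138 genes at 12 h, 265 at 48 h and 162 for the difference of effects, with 0 members among any of them. With the replicate pairs as a block limma called 3 genes at 12 h (0.0285%), and fitting just the 6 arrays of 12 h, with the block, a variance trend and robust moderation, 154 (1.47%), again with 0 members. At an unadjusted p under 0.05 the block fit had 765 of 10508 genes and 2 of the 47 at 12 h. The fit of just the 6 arrays had 1907 genes and 12 members, of which 1060 genes and 10 members were lower under CsA.

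Origin licensing opens the cycle. ORC1, the ATPase of the origin recognition complex whose protein is renewed in each G1, was at 7.81, 7.85 and 8.06 in control at 12 h, 7.44, 7.47 and 7.59 under CsA at 12 h, 3.58, 4.84 and 6.20 in control at 48 h and 3.11, 3.74 and 7.09 under CsA at 48 h, with replicates 1, 2 and 3 in that order here and below. The 12 h arrays were high and close together, every 48 h array was lower, and both 48 h groups had replicate 1 lowest and replicate 3 highest. The change from 12 h to 48 h was -3.03 ± 0.90 (log2, moderated SE, n = 3 against 3) in controls and -2.85 ± 0.90 under CsA. ORC1 at 48 h was at or below 4 on 1 control and 2 CsA arrays and passed the filter through its 12 h groups alone, so these changes are given as a description, with no fold or p. ORC6, the smallest subunit of the same complex, was at 10.89, 10.82 and 10.76 in control at 12 h, 10.90, 10.86 and 10.81 under CsA at 12 h, 9.34, 10.16 and 10.05 in control at 48 h and 8.77, 9.67 and 10.21 under CsA at 48 h. Every 48 h array was below every 12 h array, with changes of -0.97 ± 0.32 in controls (adjusted p = 0.0445) and -1.31 ± 0.32 under CsA (adjusted p = 0.0246).

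CDC6, the ATPase that joins the origin complex to load the helicase, went its own way. It was at 10.11, 9.99 and 9.95 in control at 12 h, 10.51, 10.33 and 10.09 under CsA at 12 h, 11.13, 10.99 and 8.85 in control at 48 h and 10.97, 10.69 and 8.87 under CsA at 48 h. At 48 h replicates 1 and 2 were above every control array of 12 h and replicate 3 was more than 1 log2 unit below them, with or without CsA. The mean change with time was 0.31 ± 0.62 in controls and -0.13 ± 0.62 under CsA, neither past the test (adjusted p = 0.736 and 0.907). Replicate 3 minus replicate 1 at 48 h was -2.28 in controls and -2.09 under CsA, where 45 of the 47 genes had a difference above 0 in each group. The other CDC6 probe set past the filter also had replicate 3 lowest, with 48 h control values of 10.00, 10.21 and 8.58 and CsA values of 10.06, 9.99 and 8.56. CDC6 was also higher under CsA in each pair at 12 h, by 0.40, 0.34 and 0.13, without passing the test (adjusted p = 1.00).

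CDT1, the other loading factor, was at 8.89, 8.86 and 8.78 in control at 12 h, 8.77, 8.89 and 8.85 under CsA at 12 h, 7.34, 7.80 and 8.81 in control at 48 h and 6.33, 7.68 and 9.20 under CsA at 48 h. At 48 h replicate 3 was within the range of the 12 h arrays in control and above all of them under CsA, so the groups overlapped and neither change passed (-0.86 ± 0.59 and -1.10 ± 0.59). GMNN, which codes for the CDT1 inhibitor geminin, was at 10.99, 10.96 and 11.01 in control at 12 h, 11.02, 10.99 and 10.90 under CsA at 12 h, 9.62, 9.86 and 10.26 in control at 48 h and 9.29, 9.74 and 10.42 under CsA at 48 h. All its 48 h arrays were lower than all its 12 h arrays, and the fall passed in both arms (-1.08 ± 0.25, adjusted p = 0.0128 in controls, and -1.16 ± 0.25, adjusted p = 0.0165 under CsA). The difference between CsA and control was -0.019 ± 0.25 at 12 h and -0.10 ± 0.25 at 48 h, with a 95% interval of -0.65 to 0.45 at 48 h.

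The helicase ring is built of MCM2 to MCM7. MCM2 was at 11.42, 11.36 and 11.43 in control at 12 h, 11.36, 11.44 and 11.43 under CsA at 12 h, 9.81, 10.46 and 10.89 in control at 48 h and 9.43, 10.66 and 11.68 under CsA at 48 h. At 48 h every control array was below those of 12 h, whereas under CsA replicate 3 stood above all 12 h arrays and replicate 1 was the lowest of all. Its change with time was -1.02 ± 0.45 in controls and -0.82 ± 0.45 under CsA and did not pass (adjusted p = 0.116 and 0.23). MCM3 was at 11.30, 11.32 and 11.26 in control at 12 h, 11.26, 11.29 and 11.26 under CsA at 12 h, 9.42, 10.04 and 10.46 in control at 48 h and 9.16, 10.30 and 11.23 under CsA at 48 h. It was the ring subunit that passed in controls (-1.32 ± 0.42, adjusted p = 0.0425), and under CsA it did not (-1.04 ± 0.42, adjusted p = 0.118). MCM7 was at 11.43, 11.16 and 11.42 in control at 12 h, 11.36, 11.07 and 11.32 under CsA at 12 h, 9.77, 10.33 and 10.56 in control at 48 h and 9.20, 9.90 and 11.29 under CsA at 48 h, and its changes of -1.12 ± 0.42 and -1.12 ± 0.42 did not pass.

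The other ring subunits, MCM4, MCM5 and MCM6, changed by -1.30, -1.40 and -1.20 in controls and by -1.42, -1.14 and -1.22 under CsA, without passing. The other MCM4 probe sets past the filter changed by -1.77, -1.70 and -1.91 in controls and by -1.68, -1.66 and -1.67 under CsA. MCM8, a relative of the ring that acts in recombination, had the smallest changes of the MCM genes, -0.45 ± 0.20 and -0.65 ± 0.20, and did not pass. For each of these 4 genes all control arrays of 48 h lay below those of 12 h. Of the 11 licensing genes past the filter at both times, 3 passed in controls (ORC6, GMNN and MCM3) and 2 under CsA (ORC6 and GMNN), all lower. Of all genes past it at both times, 13.6% were called lower in controls and 7.58% under CsA.

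Of the roles with more than 2 genes, helicase activation had the lowest median change in controls, -1.67 over 6 genes. MCM10, which helps to start the assembled helicase, was at 8.70, 8.65 and 8.66 in control at 12 h, 8.28, 8.70 and 8.38 under CsA at 12 h, 4.63, 5.84 and 6.04 in control at 48 h and 3.38, 4.83 and 7.44 under CsA at 48 h. All 48 h arrays were lower, most of all CsA replicate 1, and CsA replicate 3 was the highest of the 6. It changed by -3.16 ± 0.79 in controls (adjusted p = 0.0177) and -3.24 ± 0.79 under CsA (adjusted p = 0.0258). The other MCM10 probe sets past the filter changed by -2.21 and -1.84 in controls. CDC45, a fixed part of the moving helicase, was at 8.34, 8.12 and 8.27 in control at 12 h, 8.37, 7.97 and 8.19 under CsA at 12 h, 6.53, 6.86 and 7.16 in control at 48 h and 5.82, 6.83 and 7.82 under CsA at 48 h. All its 48 h arrays were below its 12 h arrays, and the fall passed in both arms (-1.39 ± 0.39, adjusted p = 0.0278, and -1.35 ± 0.39, adjusted p = 0.0453).

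The GINS complex completes that helicase. GINS1 was at 11.03, 11.21 and 11.08 in control at 12 h, 10.91, 11.15 and 10.96 under CsA at 12 h, 8.61, 9.09 and 9.80 in control at 48 h and 8.38, 9.09 and 10.58 under CsA at 48 h. Its 48 h arrays were all lower, and the falls of -1.94 ± 0.46 and -1.66 ± 0.46 passed in both arms (adjusted p = 0.015 and 0.0409). GINS2 was at 10.68, 10.55 and 10.64 in control at 12 h, 10.54, 10.42 and 10.48 under CsA at 12 h, 8.17, 8.75 and 9.45 in control at 48 h and 7.52, 8.65 and 10.37 under CsA at 48 h. Its fall passed in controls (-1.83 ± 0.57, adjusted p = 0.0386) and missed the threshold under CsA (-1.63 ± 0.57, adjusted p = 0.0777). GINS3 and GINS4 changed by -0.89 and -1.50 in controls and by -0.95 and -1.01 under CsA and did not pass. GINS4 already spread widely at 12 h, with an SD of 0.66 in controls and 0.94 under CsA.

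Among the clamp and its loader, PCNA, the sliding clamp, was at 13.27, 13.31 and 13.27 in control at 12 h, 13.29, 13.33 and 13.27 under CsA at 12 h, 11.66, 12.02 and 12.77 in control at 48 h and 11.23, 11.71 and 13.49 under CsA at 48 h. The 6 arrays of 12 h were nearly equal, all control arrays of 48 h were lower, and CsA 48 h replicate 3 was above every array of 12 h. The changes with time, -1.13 ± 0.48 in controls and -1.15 ± 0.48 under CsA, did not pass (adjusted p = 0.0994 and 0.123), and the 48 h arrays spread with an SD of 0.57 in controls and 1.19 under CsA. CsA and control at 48 h had means of 12.14 and 12.15, with a 95% interval of the difference of -1.06 to 1.05. RFC3, a subunit of the clamp loader, was at 10.13, 10.11 and 10.14 in control at 12 h, 9.99, 9.93 and 10.10 under CsA at 12 h, 8.57, 9.06 and 9.57 in control at 48 h and 8.16, 8.99 and 9.40 under CsA at 48 h. All its 48 h arrays were below its 12 h arrays, and it fell in both arms (-1.07 ± 0.30, adjusted p = 0.0271, and -1.15 ± 0.30, adjusted p = 0.0316).

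RFC2 and RFC4, further loader subunits, changed by -0.29 and -0.61 in controls and -0.41 and -0.79 under CsA and did not pass. RFC5 was at 10.94, 10.59 and 9.93 in control at 12 h, 10.18, 10.59 and 9.96 under CsA at 12 h, 10.22, 10.37 and 10.40 in control at 48 h and 10.51, 10.44 and 10.10 under CsA at 48 h on the probe set used. This probe set spread more widely at 12 h than at 48 h in control and changed by -0.16 in controls and 0.11 under CsA, the 1 change above 0 in that arm. The other RFC5 probe sets past the filter changed by -0.83 and -0.94 in controls and by -0.80 and -0.92 under CsA. Which of them follows the RFC5 transcript was not tested.

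The polymerases came next. POLA1, the catalytic subunit of the polymerase that lays the first DNA after the primer, was at 9.33, 8.91 and 8.97 in control at 12 h, 8.93, 8.85 and 8.79 under CsA at 12 h, 7.86, 7.89 and 7.97 in control at 48 h and 7.40, 7.83 and 8.85 under CsA at 48 h. The control arrays of 48 h lay close together, all below those of 12 h (-1.16 ± 0.29, adjusted p = 0.0173), while under CsA replicate 3 reached the 12 h range (-0.83 ± 0.29, adjusted p = 0.0777). POLA2, its regulatory subunit, was at 7.50, 7.68 and 7.63 in control at 12 h, 6.78, 7.24 and 7.34 under CsA at 12 h, 6.32, 6.34 and 6.63 in control at 48 h and 4.86, 5.98 and 6.72 under CsA at 48 h. All 48 h arrays were below their own arm's 12 h arrays, and the fall passed in both arms (-1.18 ± 0.37, adjusted p = 0.0393, and -1.27 ± 0.37, adjusted p = 0.0452). POLA2 also had the largest differences of the 47 between CsA and control, -0.49 ± 0.37 at 12 h and -0.58 ± 0.37 at 48 h, and neither passed (adjusted p = 1.00 and 0.999).

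POLD1, the catalytic subunit of the lagging-strand polymerase, was at 7.42, 7.62 and 7.58 in control at 12 h, 7.27, 7.31 and 7.33 under CsA at 12 h, 7.02, 6.92 and 7.44 in control at 48 h and 6.01, 6.82 and 7.43 under CsA at 48 h. The times overlapped in control, the changes of -0.41 ± 0.29 and -0.55 ± 0.29 did not pass, and CsA was lower in all 3 pairs at both times. POLD3, an accessory subunit of the same polymerase, was at 8.57, 8.50 and 8.32 in control at 12 h, 8.55, 8.33 and 8.30 under CsA at 12 h, 7.23, 7.65 and 7.76 in control at 48 h and 7.05, 7.34 and 8.28 under CsA at 48 h. It passed in controls (-0.91 ± 0.27, adjusted p = 0.033) and not under CsA (-0.83 ± 0.27, adjusted p = 0.0633). POLE2, a subunit of the leading-strand polymerase, was at 9.25, 9.17 and 9.34 in control at 12 h, 9.26, 9.38 and 9.22 under CsA at 12 h, 6.98, 7.86 and 8.65 in control at 48 h and 6.62, 7.76 and 8.94 under CsA at 48 h. Its 48 h arrays were all lower and spread from replicate 1 to replicate 3 by 1.67 in controls and 2.33 under CsA, and its changes did not pass (-1.43 ± 0.52 and -1.52 ± 0.52). POLE, the catalytic subunit, changed by -1.09 ± 0.63 and -1.15 ± 0.63, and PRIM1, the primase, by -0.19 ± 0.22 and -0.23 ± 0.22, none past the threshold.

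**Figure D2:**
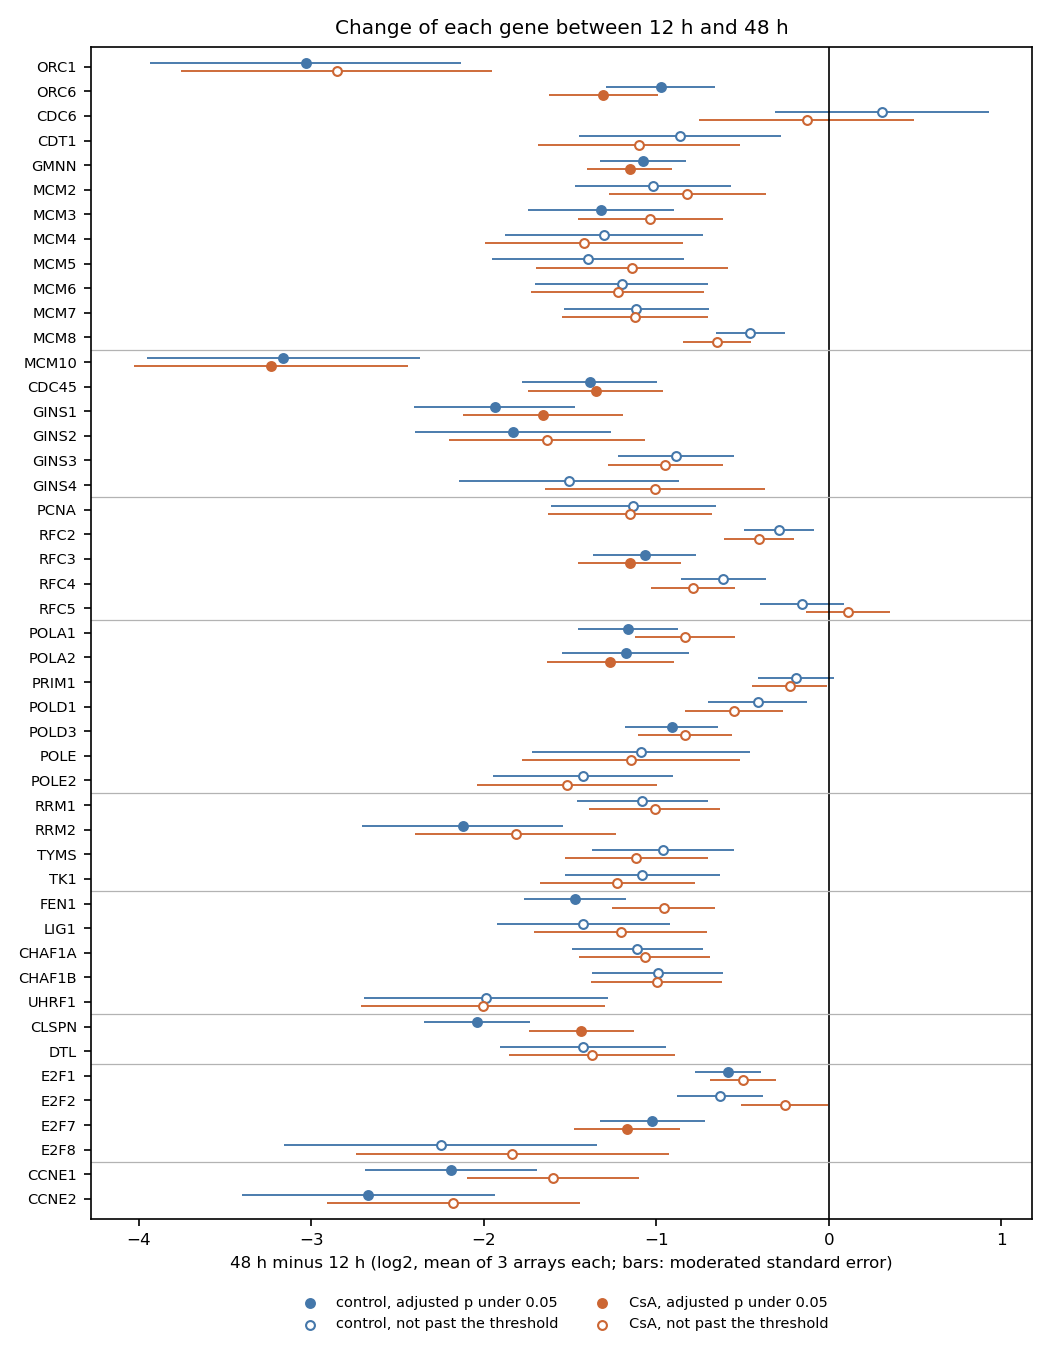
Difference between the 48 h and 12 h group means (log2, 3 arrays each) for each gene, in controls (blue) and under CsA (orange); bars are moderated standard errors, filled points have an adjusted p under 0.05 and grey lines divide the roles. The control point of CDC6 and the CsA point of RFC5 lie above 0, all others below, and 19 control and 9 CsA points are filled.

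The 4 genes of nucleotide supply were all lower at 48 h in both arms, and 1 passed in controls and 0 under CsA. Of all genes tested, 13.7% were called lower in controls and 7.58% under CsA. RRM2, the regulated subunit of ribonucleotide reductase, was at 13.36, 13.47 and 13.16 in control at 12 h, 13.14, 13.44 and 13.12 under CsA at 12 h, 10.53, 11.26 and 11.84 in control at 48 h and 9.98, 11.38 and 12.89 under CsA at 48 h. All 48 h arrays were below their 12 h arrays, with CsA replicate 1 lowest and CsA replicate 3 highest of the 6. It changed by -2.12 ± 0.58 in controls, 4.36-fold lower (adjusted p = 0.0249), and by -1.82 ± 0.58 under CsA (adjusted p = 0.0611). RRM1, the larger subunit, was at 10.97, 11.00 and 10.85 in control at 12 h, 10.90, 11.04 and 10.82 under CsA at 12 h, 9.43, 9.80 and 10.35 in control at 48 h and 9.04, 9.82 and 10.88 under CsA at 48 h. TYMS, thymidylate synthase, was at 13.14, 13.11 and 13.17 in control at 12 h, 13.02, 13.10 and 13.13 under CsA at 12 h, 11.73, 12.05 and 12.74 in control at 48 h and 11.00, 11.89 and 13.01 under CsA at 48 h. In both genes the control arrays of 48 h lay below those of 12 h, and the changes in controls, -1.08 ± 0.38 and -0.96 ± 0.41, missed the threshold (adjusted p = 0.0583 and 0.105).

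TK1, the thymidine kinase of dividing cells, was at 11.38, 11.38 and 11.38 in control at 12 h, 11.26, 11.40 and 11.38 under CsA at 12 h, 9.90, 10.21 and 10.78 in control at 48 h and 8.97, 10.11 and 11.28 under CsA at 48 h. Its 3 control arrays at 12 h were nearly equal, and at 48 h CsA replicate 3 was within the 12 h range of CsA while replicate 1 was more than 2 log2 units below. Its changes of -1.08 ± 0.45 and -1.23 ± 0.45 did not pass (adjusted p = 0.0971 and 0.0903). The changes under CsA were -1.01 ± 0.38 for RRM1 and -1.12 ± 0.41 for TYMS, also short of the threshold.

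In the group that joins Okazaki fragments and rebuilds chromatin, FEN1, the flap nuclease, was at 10.68, 10.66 and 10.66 in control at 12 h, 10.65, 10.54 and 10.34 under CsA at 12 h, 9.00, 9.23 and 9.36 in control at 48 h and 8.87, 9.40 and 10.39 under CsA at 48 h. The control arrays of 48 h were tightly grouped and far below 12 h, and CsA replicate 3 overlapped the CsA arrays of 12 h. FEN1 passed in controls (-1.47 ± 0.30, adjusted p = 0.00787) and just missed under CsA (-0.96 ± 0.30, adjusted p = 0.0555). The change under CsA minus that in control was 0.51 ± 0.42, a difference that did not pass (adjusted p = 1.00). LIG1, the ligase that seals the fragments, was at 8.32, 8.25 and 8.03 in control at 12 h, 8.20, 8.37 and 8.04 under CsA at 12 h, 5.96, 6.86 and 7.51 in control at 48 h and 5.81, 7.13 and 8.04 under CsA at 48 h. It was lower on every control array of 48 h and changed by -1.42 ± 0.50 and -1.21 ± 0.50, not past the threshold.

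CHAF1A, the large subunit of the histone chaperone behind the fork, was at 8.84, 8.86 and 8.96 in control at 12 h, 8.76, 8.89 and 8.83 under CsA at 12 h, 7.43, 7.81 and 8.09 in control at 48 h and 6.73, 7.85 and 8.69 under CsA at 48 h. Its 48 h arrays were all lower than its 12 h arrays in either arm. The changes of -1.11 ± 0.38 and -1.07 ± 0.38 did not pass (adjusted p = 0.0532 and 0.0821). The other CHAF1A probe sets past the filter changed by -1.69 and -1.43 in controls and by -1.02 and -1.83 under CsA. CHAF1B, its partner, changed by -0.99 ± 0.38 and -0.999 ± 0.38, also without passing. UHRF1, which reads hemimethylated DNA for the maintenance methylase, was at 11.24, 11.31 and 11.43 in control at 12 h, 11.28, 11.21 and 11.38 under CsA at 12 h, 8.47, 9.61 and 9.93 in control at 48 h and 7.45, 9.33 and 11.07 under CsA at 48 h. The 12 h arrays were close, all 48 h arrays were lower, and CsA replicates 1 and 3 of 48 h differed by 3.62 where the control replicates differed by 1.46. UHRF1 changed by -1.99 ± 0.71 and -2.01 ± 0.71, 3.97-fold and 4.02-fold lower, and missed the threshold in both arms (adjusted p = 0.0608 and 0.0812).

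CLSPN codes for claspin, which relays the stalled-fork signal to the kinase CHEK1, and was at 4.70, 5.04 and 5.07 in control at 12 h, 4.44, 4.60 and 4.46 under CsA at 12 h, 2.43, 3.01 and 3.25 in control at 48 h and 2.67, 2.68 and 3.84 under CsA at 48 h. All 48 h arrays were below 4 and all 12 h arrays above it, so the gene entered the test through its 12 h values and had to differ. It had the largest moderated statistic of the 47 in both time comparisons, with changes of -2.04 ± 0.31 in controls and -1.44 ± 0.31 under CsA, given as a description. At 12 h it was lower under CsA in all 3 pairs, with a mean difference of -0.43 ± 0.31, and did not pass (adjusted p = 1.00). DTL, the ubiquitin ligase adaptor that removes CDT1 at replicating DNA, was at 11.60, 11.48 and 11.43 in control at 12 h, 11.52, 11.61 and 11.44 under CsA at 12 h, 9.51, 10.06 and 10.67 in control at 48 h and 9.02, 10.04 and 11.39 under CsA at 48 h. It was lower on all 48 h arrays and changed by -1.42 ± 0.48 (adjusted p = 0.0519) and -1.37 ± 0.48 (adjusted p = 0.08).

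Of the E2F factors, E2F1, an activator, was at 7.14, 6.93 and 7.08 in control at 12 h, 6.93, 6.95 and 6.72 under CsA at 12 h, 6.22, 6.42 and 6.77 in control at 48 h and 6.00, 6.36 and 6.75 under CsA at 48 h. The control arrays of 48 h were below those of 12 h, with a change of -0.58 ± 0.19 (adjusted p = 0.0471), and under CsA the change was -0.50 ± 0.19 (adjusted p = 0.102). E2F2, another activator, was at 5.53, 5.76 and 5.55 in control at 12 h, 5.36, 5.76 and 5.09 under CsA at 12 h, 5.07, 4.75 and 5.13 in control at 48 h and 4.68, 5.05 and 5.72 under CsA at 48 h. It changed by -0.63 ± 0.25 in controls and -0.26 ± 0.25 under CsA, neither past the threshold, and at 48 h CsA replicate 3 was within the 12 h range.

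E2F7 and E2F8 are the repressors of the family, made in S phase and acting against the activators. E2F7 was at 8.92, 8.69 and 8.99 in control at 12 h, 9.07, 8.83 and 9.20 under CsA at 12 h, 7.50, 8.01 and 8.02 in control at 48 h and 7.18, 7.78 and 8.64 under CsA at 48 h. The 48 h arrays were lower than any 12 h array, and E2F7 fell in both arms (-1.02 ± 0.31, adjusted p = 0.0339, and -1.17 ± 0.31, adjusted p = 0.0322). E2F8 was at 7.80, 7.69 and 7.64 in control at 12 h, 7.20, 7.60 and 7.01 under CsA at 12 h, 4.07, 5.71 and 6.58 in control at 48 h and 3.45, 5.13 and 7.73 under CsA at 48 h. At 48 h its arrays ran from values near 4 on replicate 1 to a value on CsA replicate 3 that lay above 2 of the control and all CsA arrays of 12 h. Its mean changes of -2.25 ± 0.91 and -1.84 ± 0.91 did not pass (adjusted p = 0.0883 and 0.184).

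Of the roles, cyclin E had the largest median SD under CsA at 48 h, 1.67. CCNE1 was at 8.05, 7.62 and 7.75 in control at 12 h, 7.68, 7.24 and 7.55 under CsA at 12 h, 5.68, 5.53 and 5.63 in control at 48 h and 5.03, 5.20 and 7.43 under CsA at 48 h. The control arrays of 48 h lay close together, far below every control array of 12 h, and CsA replicate 3 of 48 h stood apart above the other 5 arrays of that time. CCNE1 changed by -2.19 ± 0.50 in controls, 4.57-fold lower (adjusted p = 0.0123), and by -1.60 ± 0.50 under CsA (adjusted p = 0.0558). CCNE2, the other cyclin E, was at 9.45, 9.56 and 9.44 in control at 12 h, 9.29, 9.45 and 9.16 under CsA at 12 h, 6.57, 6.65 and 7.22 in control at 48 h and 5.72, 6.23 and 9.42 under CsA at 48 h. Its CsA replicate 3 of 48 h was within the range of the CsA arrays at 12 h, while replicates 1 and 2 were far below it. CCNE2 changed by -2.67 ± 0.73 in controls, 6.36-fold lower (adjusted p = 0.0251), and by -2.18 ± 0.73 under CsA (adjusted p = 0.071). CsA minus control at 48 h was -0.65, -0.33 and 1.80 for CCNE1 in replicates 1, 2 and 3, and -0.84, -0.41 and 2.19 for CCNE2. The other CCNE2 probe set past the filter had the same form, at 4.90, 4.58 and 4.61 in control and 3.41, 4.15 and 7.72 under CsA at 48 h.

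**Figure D3:**
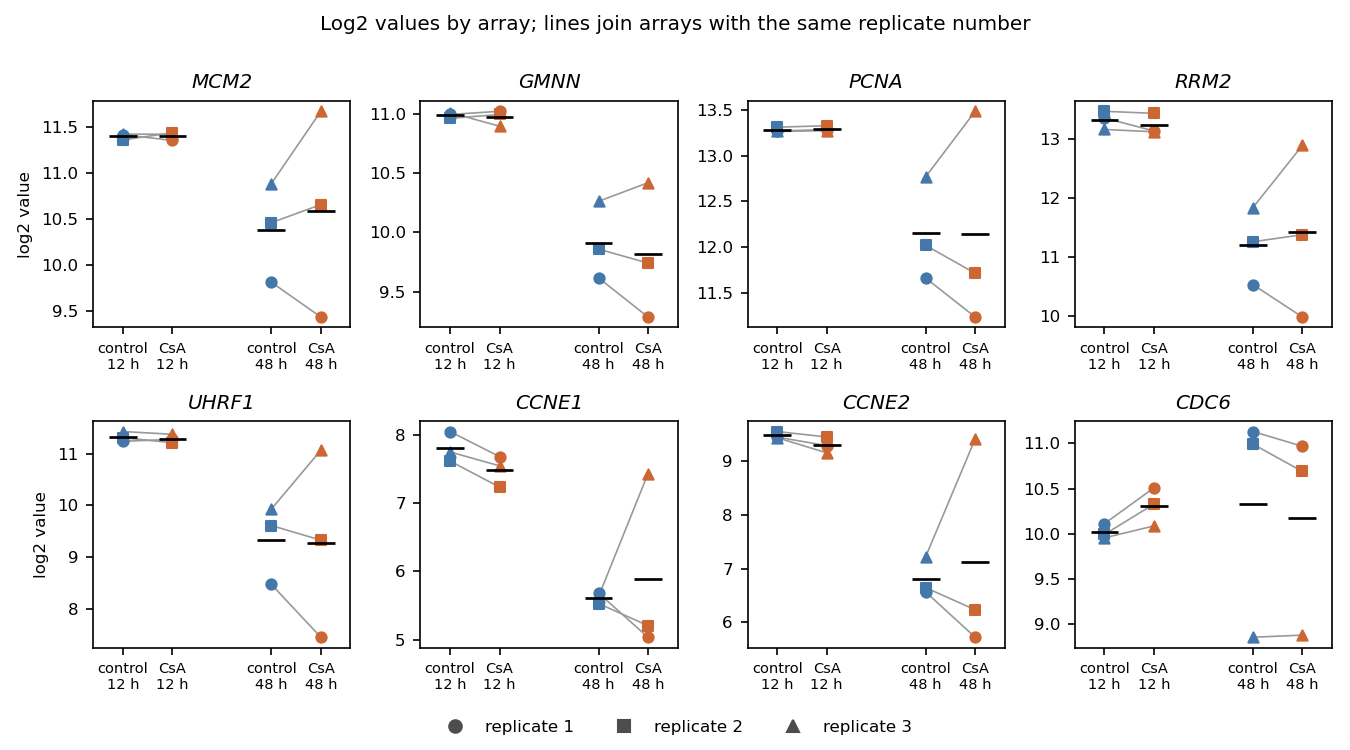
Log2 values of 8 genes on each array by group (blue, control; orange, CsA; circles, squares and triangles, replicates 1, 2 and 3), with group means as black bars and grey lines joining control and CsA arrays of the same replicate number and time; each panel has its own vertical scale. At 48 h the CsA triangles stand above the control triangles and the CsA circles below the control circles in every panel; in that of CDC6 the triangles nearly meet and lie at the bottom in both groups.

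The 4 groups differed in how far their replicates lay apart. The median SD of a member over 3 arrays was 0.092 in control and 0.089 under CsA at 12 h, and 0.46 in control and 1.03 under CsA at 48 h. Over all genes tested these medians were 0.12, 0.12, 0.21 and 0.28. The SD at 48 h was larger under CsA than in control for 46 of the 47 genes (97.9%; all genes 66.7%), CDC6 being the exception. Relative to the 12 h control mean, the median member was at -1.57, -1.16 and -0.73 on the 48 h control arrays and at -2.14, -1.25 and -0.18 on the CsA arrays. Replicate 1 was lowest and replicate 3 highest at 48 h for 40 of 47 genes in control (all genes 23.2%) and 45 of 47 under CsA (all genes 25.7%). Replicate 3 minus replicate 1 had a median of 0.88 in control and 2.01 under CsA.

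Array medians over all probe sets lay between 2.85 and 2.95, 38.3% to 38.8% of probe sets were above 4, and the lowest correlation within a group was 0.982, between CsA 48 h replicates 1 and 3. Of the cell markers, 0 of 8 proximal tubule markers and 0 of 2 leukocyte markers passed the filter, whereas 5 of 5 general epithelial, 1 of 3 distal nephron and 1 of 3 endothelial markers did, and the log2 of the summed fibroblast markers was 8.86 to 9.92 in control and 8.66 to 10.20 under CsA at 48 h. At 12 h that sum was 8.99 to 9.84 in control and 9.07 to 9.67 under CsA. Of the fibroblast markers, COL1A1 and DCN passed the filter, and their part in the spread at 48 h was not tested. AQP1, a defining channel of the proximal tubule, had group means of 2.44 to 2.46. With 0 of 8 proximal tubule markers past the filter, the origin given above for HK-2 cells was not borne out by these markers.

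Same-numbered CsA and control arrays deviated together within a time, so the CsA effect was also read pair by pair. At 12 h the median member differed by -0.085, -0.0087 and -0.072 in pairs 1, 2 and 3. CsA lay below control without overlap in 8 genes (ORC1, GINS2, RFC3, POLA2, POLD1, FEN1, CLSPN and E2F8), beside 6.57% of all genes, and above it in 0, beside 5.37%. In 19 genes CsA was lower in all 3 pairs, beside 22.5% of all genes. These differences were small; the 8 ran from -0.49 (POLA2) to -0.12 (RFC3).

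At 48 h the pairs went in different directions. The median member was -0.46 in pair 1, -0.12 in pair 2 and 0.59 in pair 3, while the median of all genes ran from -0.033 to 0.0013. CsA was lower in 45 of 47 genes in pair 1 and in 36 in pair 2, and higher in 43 in pair 3. Both a lower value in pair 1 and a higher value in pair 3 were seen in 42 genes, beside 23% of all genes; RFC3, RFC5, POLD1, CLSPN and E2F1 differed. CsA was lower in all 3 pairs for 3 genes, RFC3, POLD1 and E2F1, beside 16.2% of all genes. Leaving out CsA replicate 1 of 48 h moved the median difference between CsA and control to 0.46, leaving out CsA replicate 3 to -0.51, and without both arrays of replicate 1 or of replicate 3 it was 0.20 and -0.29. In none of these fits did a member pass. The pair pattern was noticed in these values and has no test of its own.

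Pair 3 differed by role. Cyclin E had the largest median difference, 2.00, then helicase activation 0.84, origin licensing 0.70, the Okazaki and chromatin group and the E2F factors 0.60 each and nucleotide supply 0.52. The polymerases had 0.45, and the clamp and its loader 0.046, with PCNA at 0.72. CLSPN and DTL were at 0.59 and 0.72. In pair 1 the medians were cyclin E -0.75, helicase activation and nucleotide supply -0.64 each, and licensing -0.49. These are medians over 2 to 12 genes of the same arrays.

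**Figure D4:**
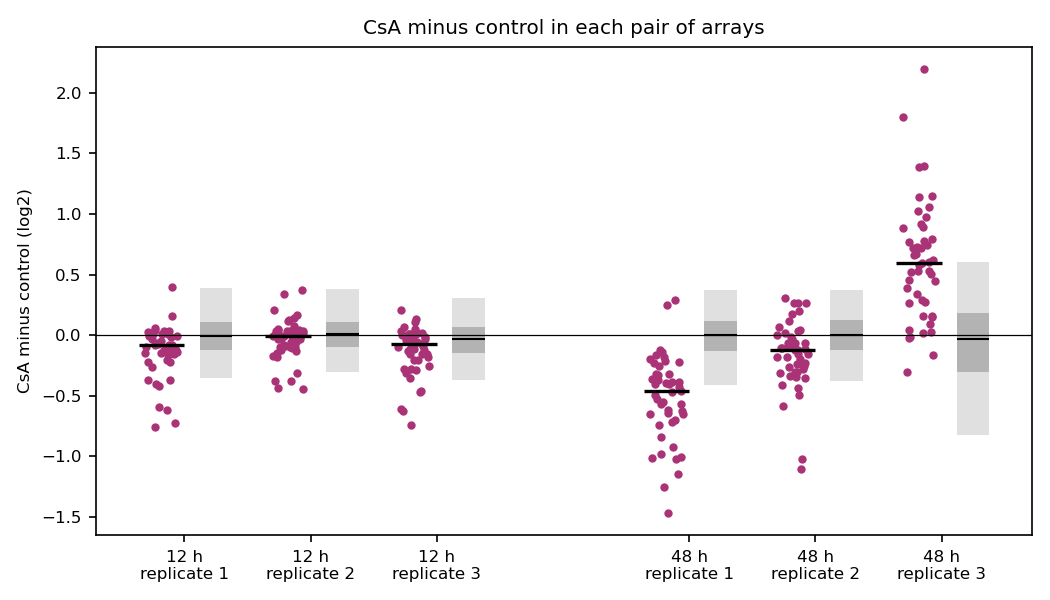
CsA minus control (log2) in each pair of arrays with the same replicate number at 12 h and 48 h: each point is 1 of the 47 genes with its median as a bar, and beside it the light and dark grey boxes span the 5th to 95th and 25th to 75th percentiles of all 10508 genes tested. The points gather near 0 at 12 h, and at 48 h they lie mostly below 0 in replicate 1 and above 0 in replicate 3.

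The changes with time were also set beside the promoter letters, with no test of the difference. The 24 genes with the E2F letters had a median change of -1.12 in controls, from -2.04 to 0.31, and of -1.15 under CsA. The 17 with a window but without them had medians of -1.08, from -3.16 to -0.16, and -1.07. Among the 41 genes with a window, the 4 lowest changes in controls, those of MCM10, ORC1, CCNE1 and RRM2, belonged to genes without the letters. The next lowest, those of CLSPN (-2.04), UHRF1 (-1.99), GINS1 (-1.94) and GINS2 (-1.83), belonged to genes with them. For ORC1 and CLSPN the filter favoured a lower value at 48 h. The 6 genes with no window here had medians of -1.45 and -1.28. In the sequences printed above, CDC6 has a match and at 48 h was above every 12 h array of its arm on 2 of 3 arrays without passing the test, and CCNE1 has none and fell in controls.

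Genes around this machinery were read from lists of their own. Of 50 other replication and S phase genes tested, 43 had a change with time below 0 in each arm, with medians of -0.58 and -0.60. In controls 15 passed the test as lower (all genes 13.7%) and 0 as higher (12.5%), and under CsA 8 passed as lower (7.58%) and 0 as higher (6.77%). TIPIN, a fork protection factor, changed by -0.91 ± 0.17 and -0.96 ± 0.17 (adjusted p = 0.00583 and 0.0079). CHEK1, the kinase that claspin serves, changed by -0.68 ± 0.15 and -0.70 ± 0.15, BRCA1, a repair factor, by -0.65 ± 0.14 and -0.71 ± 0.14, and CHTF18, of an alternative clamp loader, by -0.76 ± 0.14 in controls. Each of these changes passed the test. CHTF18 had the largest statistic of this list between CsA and control at 12 h, with a difference of -0.42 ± 0.14. Its CsA effect at 48 h minus that at 12 h was 0.38 ± 0.19. Neither passed.

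Among 25 other G1/S control genes tested, 16 had a change below 0 and 9 above 0 in each arm. In controls 9 passed the test as lower (all genes 13.7%) and 5 as higher (12.5%), and under CsA 7 passed as lower (7.58%) and 3 as higher (6.77%). SKP2, which marks the inhibitor p27 for removal, changed by -2.75 ± 0.52 in controls (adjusted p = 0.00589), CDC25A, a phosphatase that activates the cyclin E kinase, by -2.11 ± 0.43 and CDK6, a partner of cyclin D, by -1.11 ± 0.24. The 5 that passed as higher in controls were CDKN1A, CDKN1B and CDKN1C, which code for inhibitors of cyclin kinases, with RBL2, an RB relative, and the cyclin D kinase CDK4. CDKN1C changed by 1.04 ± 0.17 in controls (adjusted p = 0.00346) and 0.91 ± 0.17 under CsA (adjusted p = 0.0104), and CDKN1A by 1.20 ± 0.36 in controls. On the 48 h arrays CDKN1A was at 11.88, 11.49 and 11.15 in control and 11.96, 11.61 and 10.64 under CsA, and SKP2 at 7.31, 6.68 and 8.05 and 7.03, 7.31 and 9.33. No gene of either list passed between CsA and control at 12 h or 48 h.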

How the data were processed

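The authors deposited 1 table of log2 values for 54675 probe sets on 12 arrays, which the submitters' processing notes say came from GCRMA; its version is not given in the sources used here. GCRMA corrects background by probe sequence, equalises arrays by quantiles and summarises probes, so a shift shared by all genes would not show. Arrays carry no read depth, and precision is limited by their number. The values were used as deposited. Of the probe sets, 41091 carried 1 gene symbol in the platform annotation, 1801 several and 11721 none, and 62 were controls. A gene was tested if its probe set was above 4 on all 3 arrays of a group.

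Group means were fitted over all 12 arrays (8 residual degrees of freedom) with limma 3.58.1 in R 4.3.3, eBayes without trend, two-sided, adjusted by Benjamini-Hochberg over 10508 genes at 0.05. The script was tested on simulated data. All members are named by role, with values per array for genes chosen by role, for those past the threshold and for the 3 with the largest statistic in each comparison; of other lists up to 4 with the largest statistic are named, and CDKN1A with its values after they were seen. Members and lists were chosen with earlier results of these data known. Same-numbered CsA and control arrays deviated together within a time (correlations across genes 0.366, 0.531 and 0.591 at 12 h, and 0.783, 0.545 and 0.74 at 48 h), so the number was a block in an alternative fit; this pairing comes from the data. Other alternatives were trend and robust moderation, the filter, the mean of probe sets, quantile normalization, fewer arrays and leaving out arrays. Promoter letters were counted with Python 3.11.15.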

Additional observations from a re-analysis of the deposited data

How the results depend on the processing

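The direction of the median change with time and the absence of calls between CsA and control held under every alternative run, while the number of genes called with time did not. In controls, against 19 calls, there were 6 with no filter on low values, 38 with only the arrays compared, 30 with the replicate number as a block over all arrays (all genes 17.8% called lower), and 3 to 24 leaving out 1 array. Further fits were chosen after the data were seen: 35 calls with the block, only the arrays compared, trend and robust moderation (all genes 11.6% called lower), 3 without both 48 h arrays of replicate 2, and 44 without both of replicate 3. Under CsA, against 9 calls, there were 2 with no filter, 0 with only the arrays compared, 24 with the block over all arrays (all genes 12.4% called lower) and 0 to 44 leaving out 1 array. The fits chosen later gave 0 with the block, only the arrays compared, trend and robust moderation, where 0 of 10508 genes were called. They gave 4, 0 and 44 without both 48 h arrays of replicates 1, 2 and 3. Where no share of all genes stands beside a count it is not given here, so that count shows nothing particular to these genes. The cause of these shifts was not tested. Same-numbered arrays of 12 h and 48 h were not paired (correlations of -0.144 to 0.226), so this block result is no sign of a weaker or stronger change. The replicate block within a time changed no call of these genes between CsA and control. The median change in controls was -0.90 without control 48 h replicate 1, alone or with CsA replicate 1 (leaving out 1 array, -1.32 to -0.90). The median difference between the CsA effects ran from -0.46 to 0.54 leaving out 1 array. For that comparison only the arrays compared are all 12, so it has no separate fit. Refits of the called genes lost the call in 145 cases and kept it in 107 with arrays left out, and lost it in 45 and kept it in 175 under other settings; the direction reversed in none. Values at or below 4 limit the changes of ORC1, MCM10, CLSPN and E2F8.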

Other observations

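Mitosis genes, which act after the replication genes in the cycle, were read on the same arrays from a list of 20. All 20 had a change below 0 from 12 h to 48 h in each arm, with medians of -1.19 and -1.11. In controls 15 passed the test as lower (limma, adjusted p under 0.05; all genes 13.7%) and under CsA 8 did (all genes 7.58%). CDC20, which releases cells from metaphase, changed by -1.14 ± 0.22 in controls and -1.06 ± 0.22 under CsA (adjusted p = 0.00645 and 0.0143). FOXM1, a transcription factor of G2 and mitosis, changed by -1.51 ± 0.36 and -1.33 ± 0.36, and BUB1, a spindle checkpoint kinase, by -0.89 ± 0.21 and -0.96 ± 0.21. Replicate 1 was lowest and replicate 3 highest at 48 h for all 20 in both arms.

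CsA minus control in the mitosis genes at 48 h had medians of -0.25, -0.056 and 0.16 in pairs 1, 2 and 3, where the replication and G1/S genes had -0.46, -0.12 and 0.59; the difference between the lists was not tested. At 12 h all 20 means were lower under CsA, with a median of -0.12 against -0.015 over all genes, and 0 passed the test; no mitosis gene passed at 48 h either.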
